A study of Mus musculus with 18 samples.

Results

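The comparison described here sets renal cortex taken after toxin injury and a period of remodeling against cortex of vehicle mice, in mice whose proximal tubules keep the transcription factor Klf15. It takes 6 of the 18 libraries of the series, 3 in each group, and reads them across all genes. The injured group, called AA 4wk, is Klf15fl/fl on C57Bl/6, with 2 weeks of aristolochic acid I (AAI) and then 2 weeks of remodeling. The vehicle group, called DMSO, is Klf15fl/fl on C57Bl/6 and received dimethyl sulfoxide. The floxed alleles are thus shared by both groups, and the labels give no week for DMSO, and no sex or age for either. The other groups used below are Klf15fl/fl cortex at the end of the 2 weeks of AAI (AA 2wk), and the AA 4wk and DMSO cortex of Klf15PTKO mice, which lack Klf15 in the proximal tubule. The remaining group, Klf15PTKO cortex at the end of the 2 weeks of AAI (PTKO AA 2wk), enters through the fit. All 18 libraries were fitted together, so the spread of each gene comes from all 6 groups. The labels do not name the Cre line, and they do not say whether replicates are separate mice, so p-values measure the spread between these samples.

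Aristolochic acid is a plant toxin that the proximal tubule takes up through organic anion transporters and reduces to a form that binds DNA. The proximal tubule reclaims most filtered solutes, burns fatty acids to do so, and makes glucose and ammonia. An injured tubule cell is known to lower its transporter and oxidative genes and to make injury proteins such as KIM-1 and NGAL, while macrophages, lymphocytes and matrix-producing fibroblasts gather around it. Klf15 is a zinc-finger transcription factor known for control of fatty acid, amino acid and glucose metabolism.

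Expression values as RPKM, read counts scaled by gene length and library depth, were compared on the log2(RPKM + 1) scale with limma, and a gene was called at an adjusted p below 0.05 over 13624 tested genes. All log2 fold changes below are AA 4wk over DMSO on that scale, which understates the change of low genes, and ± is the standard error. Of the tested genes, 7074 were called higher in AA 4wk, or 51.9%, and 1954 were called lower, or 14.3%. The median of all tested genes was 0.35, so the RPKM values of most genes sat above vehicle. Kap, which encodes kidney androgen-regulated protein, held 0.179%, 0.112% and 0.377% of the summed RPKM in AA 4wk libraries, against 9.39%, 8.62% and 10.8% in DMSO libraries. The 20 genes highest in DMSO held 10.2% to 11.6% in AA 4wk libraries and 22.4% to 24.1% in DMSO libraries. Under median-of-ratios scaling the median of all genes was 0.00 and 50.7% of the calls were higher. Under quantile normalization they were -0.08 and 43.8%, against 78.4% in the values as deposited. For this reason counts of gene groups are given as deposited and, where they differ, also for the members called in the same direction under all 3 scalings. Over all tested genes the count under all 3 scalings was 2995 higher, or 22.0%, and 1868 lower, or 13.7%. A change of at least 1 on the log2 scale was seen in 2558 of the genes called higher and 634 of those called lower, and a change of at least 3 in 239 and 50.

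The recovered depth was 16.9 to 18.3 M reads in AA 4wk and 15.8 to 18 M reads in DMSO, so depth was close in both groups. A level of at least 1 RPKM was reached by 13069 to 13224 genes in AA 4wk libraries and by 11323 to 12160 genes in DMSO libraries. Replicate libraries correlated over genes at r = 0.988 to 0.992 in AA 4wk and 0.979 to 0.992 in DMSO. Klf15 itself read 11.6, 14.6 and 18.8 RPKM in AA 4wk libraries, against 53, 61.3 and 65.5 RPKM in DMSO libraries. In PTKO DMSO cortex, where other cells of the cortex keep the gene, it read 28.5, 31.9 and 32.6 RPKM. Within DMSO, library 2 was the highest of the 3 for 58.3% of tested genes and library 3 the lowest for 50.2%, and DMSO library 3 was the lowest for 16 of 17 collagens, 23 of 24 endothelial markers and 11 of 12 thick ascending limb markers. These are bulk samples, in which fewer cells of a type and less RNA per cell cannot be told apart. The gene lists share some members, and both the lists and the comparison were chosen with earlier results of these data known.

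**Figure D1:**
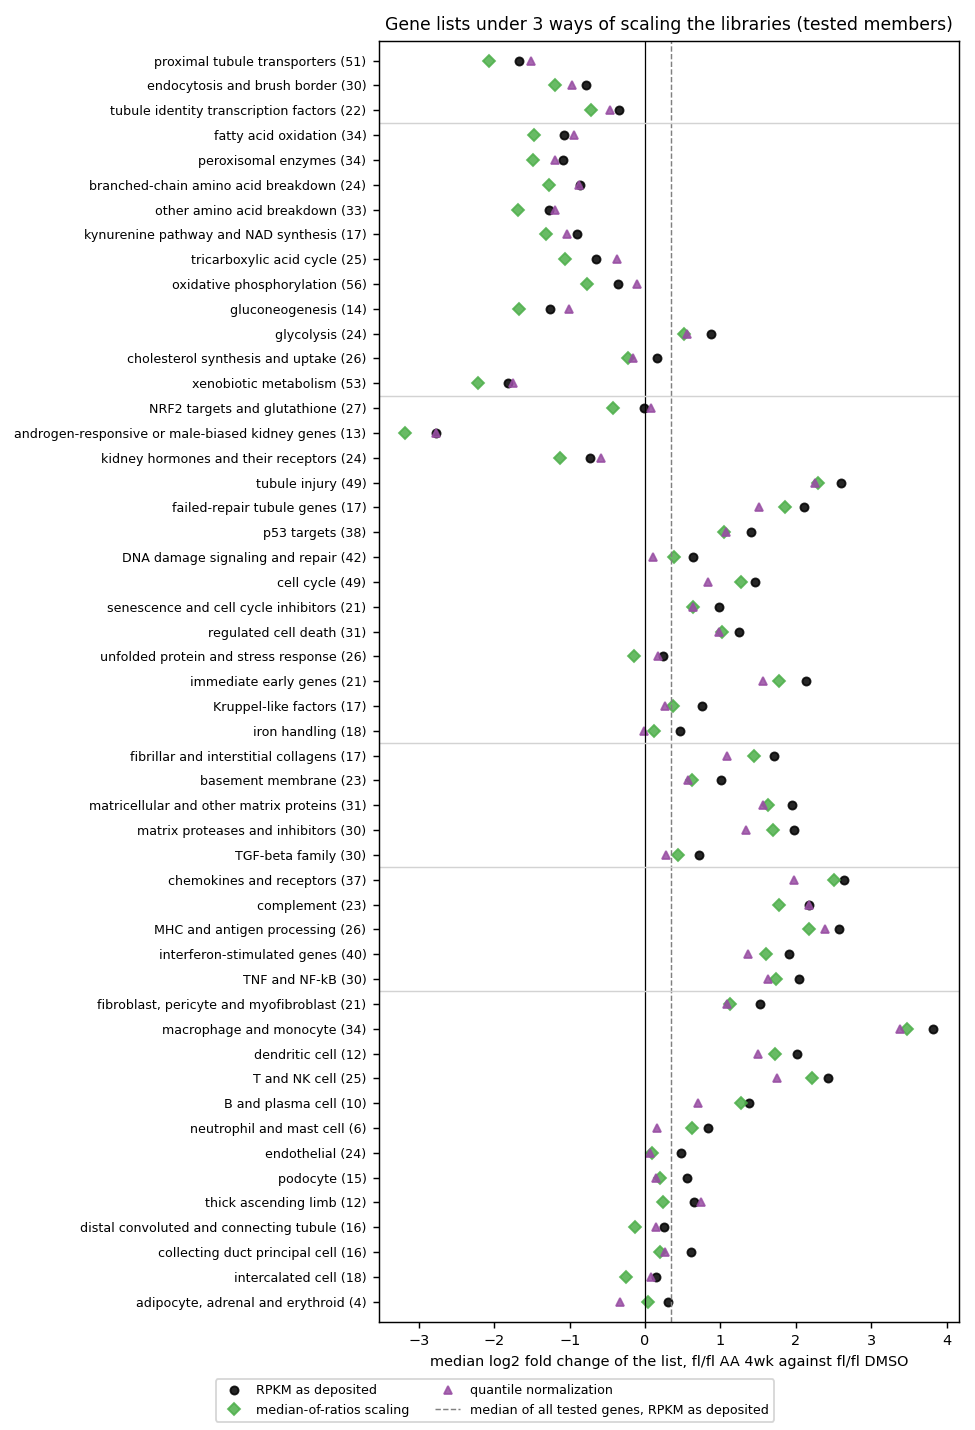
Median log2 fold change of each gene list, fl/fl AA 4wk against fl/fl DMSO, for RPKM as deposited (circles), after median-of-ratios scaling (diamonds) and after quantile normalization (triangles), with the number of tested members in brackets. The proximal tubule and oxidative lists lie left of 0 and the injury, matrix and immune lists right of 0 under all 3 scalings, while the cholesterol, unfolded protein, NRF2, distal tubule, intercalated cell, iron and last lists cross 0 with the scaling.

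Proximal tubule transporters were lower as a group. Of 51 tested, 40 were called lower and 1 higher, and 38 and 1 were called so under all 3 scalings, with a median of -1.68 as deposited and -2.07 after median-of-ratios scaling. Slco1a1, an organic anion uptake carrier, read 0.418, 0.242 and 0.413 RPKM in AA 4wk libraries, against 102, 53.6 and 185 RPKM in DMSO libraries, a log2 fold change of -6.22 ± 0.31 (adjusted p = 9.34e-09). Slc7a13, a cystine and aspartate transporter of the late proximal tubule, read 5.19, 5.96 and 12.3 RPKM in AA 4wk, against 397, 533 and 553 RPKM in DMSO (-5.88 ± 0.49, adjusted p = 4.65e-07). For both genes every AA 4wk library lay far below every DMSO library. Slc22a6 (Oat1), a basolateral uptake carrier for organic anions that also transports aristolochic acid, read 40.5, 22.6 and 37.0 RPKM in AA 4wk and 381, 265 and 443 RPKM in DMSO (-3.41 ± 0.57). Its relatives Slc22a7 and Slc22a30 were lower by fold changes of -3.60 ± 0.55 and -3.77 ± 0.34. The sodium-phosphate cotransporter Slc34a1, a defining proximal tubule marker, stayed abundant at 988, 1034 and 1186 RPKM in AA 4wk, against 2824, 2249 and 2590 RPKM in DMSO (-1.25 ± 0.34, adjusted p = 0.00472). Other defining markers of this segment, Slc5a2 and Slc5a12, were not called as deposited. Slc5a2 read 147, 153 and 171 RPKM in AA 4wk and 174, 134 and 145 RPKM in DMSO, and was called under no scaling. Slc5a12 read 105, 94.4 and 97.5 RPKM in AA 4wk and 136, 107 and 161 RPKM in DMSO, and was called lower only after median-of-ratios scaling. Slc2a2, the basolateral glucose carrier, read 71.0, 69.8 and 67.0 RPKM in AA 4wk and 104, 73.4 and 99.3 RPKM in DMSO, and its change of -0.39 ± 0.21 was not called as deposited but was called lower after median-of-ratios scaling and without DMSO library 2 (-0.55). The 1 transporter called higher was Abcc4, an apical efflux pump, at 22.1, 27.1 and 22.3 RPKM in AA 4wk against 9.92, 11.3 and 8.58 RPKM in DMSO (1.19 ± 0.12).

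Endocytosis and brush border genes followed, with 20 of 30 called lower and 2 higher (18 and 0 under all 3 scalings). Lrp2 (megalin), the receptor that retrieves filtered protein, read 21.5, 33.0 and 21.9 RPKM in AA 4wk libraries, against 173, 194 and 115 RPKM in DMSO libraries (-2.60 ± 0.31, adjusted p = 6.55e-06). The brush border peptidase genes Mep1b, Ace, Mep1a and Ggt1 had fold changes of -3.87 ± 0.40, -3.18 ± 0.28, -2.77 ± 0.26 and -2.63 ± 0.23. Acy3, which deacetylates mercapturic acids, fell to 149, 112 and 177 RPKM in AA 4wk, against 2078, 1837 and 2380 RPKM in DMSO (-3.85 ± 0.26). Ezr (ezrin), a cytoskeletal linker of microvilli, and Ap2m1, a clathrin adaptor subunit, were the 2 called higher (0.69 ± 0.09 and 0.37 ± 0.07), and neither was called higher after median-of-ratios scaling.

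The transcription factors that hold tubule identity divided. Hnf4a, the nuclear receptor that drives proximal tubule maturation, read 93.9, 97.8 and 107 RPKM in AA 4wk and 293, 266 and 310 RPKM in DMSO (-1.53 ± 0.17, adjusted p = 4.03e-06). Nr1h4 (FXR), Ppara and Vdr had fold changes of -1.53 ± 0.21, -1.52 ± 0.29 and -1.15 ± 0.16. In all 10 of 22 were called lower and 5 higher (10 and 3 under all 3 scalings). The nephron-lineage factors Pax2 and Pax8 went the other way, with Pax2 at 20.5, 25.1 and 23.4 RPKM in AA 4wk against 10.3, 14.6 and 7.95 RPKM in DMSO (1.04 ± 0.17) and Pax8 at 0.68 ± 0.14. Wt1 and Tfeb were called higher as deposited (0.55 ± 0.22 and 0.48 ± 0.08) but under neither other scaling, nor Wt1 without any 1 of 6 libraries (0.44 to 0.55).

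Among Kruppel-like factors, Klf15 fell by 1.95 ± 0.26 on the log2 scale (adjusted p = 1.76e-05), and no AA 4wk library reached a DMSO library. Klf9 and Klf12 were also called lower under every scaling (-0.81 ± 0.16 and -0.56 ± 0.16). Klf5, a factor of proliferating epithelium, read 9.31, 9.21 and 9.59 RPKM in AA 4wk, against 0.386, 0.633 and 0.256 RPKM in DMSO (2.87 ± 0.32). Klf6 rose to 72.4, 47.7 and 57.6 RPKM in AA 4wk, against 8.31, 10.4 and 8.19 RPKM in DMSO (2.58 ± 0.29), and Klf4 by 1.76 ± 0.25. Of 17 tested factors of the family and its relatives, 12 were called higher and 3 lower (8 and 3 under all 3 scalings).

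**Figure D2:**
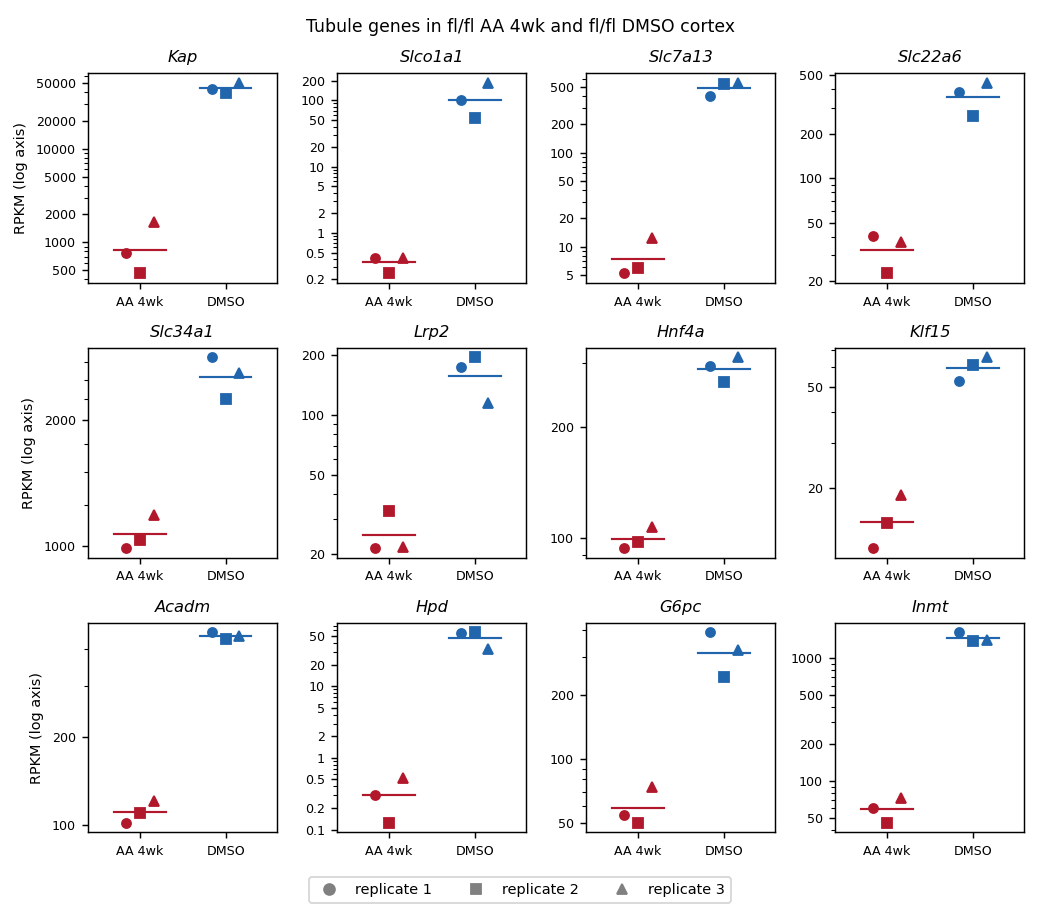
RPKM on log axes of 12 tubule genes in the 3 fl/fl AA 4wk and the 3 fl/fl DMSO libraries. Symbols mark replicate numbers and bars the group mean of log2(RPKM + 1) set back to RPKM, and in each panel the AA 4wk libraries lie below the DMSO libraries.

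Kap had the largest loss in mean RPKM. It read 763, 465 and 1649 RPKM in AA 4wk libraries, against 43574, 39230 and 50705 RPKM in DMSO libraries (-5.72 ± 0.55, adjusted p = 1.37e-06). Androgen-responsive or male-biased kidney genes, of which Kap is the textbook case in mice, were lower in 11 of 13 and higher in 1 under all 3 scalings, with a median of -2.77. Cyp4b1, Acsm3 and Cyp4a12a of that list had fold changes of -4.12 ± 0.44, -4.25 ± 0.61 and -3.09 ± 0.61. Gusb, a lysosomal hydrolase, was the exception at 39.3, 32.5 and 32.2 RPKM in AA 4wk against 19.2, 14.5 and 22.1 RPKM in DMSO (0.88 ± 0.20). The promoter of Kap is shown because it belongs to the gene with the largest loss in RPKM and carries a TATA box. It comes from RefSeq (build GRCm38.p6, chr6:133853618-133853917, minus strand), runs from 250 bases before to 50 bases after the gene start, and has the letters TATAAA in capitals, 31 bases before the start.
Kap: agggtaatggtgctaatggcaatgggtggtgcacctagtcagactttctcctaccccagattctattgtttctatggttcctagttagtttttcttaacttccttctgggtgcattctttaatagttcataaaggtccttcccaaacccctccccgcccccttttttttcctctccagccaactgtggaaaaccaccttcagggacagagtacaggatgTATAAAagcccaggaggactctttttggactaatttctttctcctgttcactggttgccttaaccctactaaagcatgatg
The letters TATAAA, on either strand, occurred in 13.6% of the RefSeq promoters searched, in 7.63% of promoters of tested genes and in 13 of the 42 promoters of genes with a fold change of at most -3 (31%). They were not particular to lost genes. They were in 36 of 197 promoters of genes with a rise of at least 3 (18.3%) and in 8 of 21 promoters of antigen presentation genes (38.1%). Among genes called under all 3 scalings they were in 8.75% of promoters of the higher and 8.93% of the lower genes. These shares are a description, with no test.

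Fatty acid oxidation genes were called lower in 26 of 34 and higher in 2 (24 and 2 under all 3 scalings), with a median of -1.07. Acadm, the medium-chain acyl-CoA dehydrogenase, read 102, 110 and 121 RPKM in AA 4wk libraries, against 456, 431 and 444 RPKM in DMSO libraries (-1.99 ± 0.19, adjusted p = 9.44e-07). Acsm3, a medium-chain acyl-CoA synthetase, fell to 15.8, 10.8 and 32.2 RPKM in AA 4wk, against 291, 307 and 498 RPKM in DMSO. Ehhadh, the peroxisomal bifunctional enzyme, had -2.65 ± 0.38. Cpt1a, the liver-type enzyme of fatty acid entry into mitochondria, changed less, at 119, 115 and 105 RPKM in AA 4wk against 168, 158 and 175 RPKM in DMSO (-0.56 ± 0.23, adjusted p = 0.0419), and it was not called under quantile normalization or without any 1 of 11 libraries (adjusted p of 0.0503 to 0.107 without them). Its neuronal relative Cpt1c rose to 12.6, 11.7 and 11.4 RPKM in AA 4wk, against 0.456, 1.21 and 0.181 RPKM in DMSO (3.04 ± 0.32), and the other gene called higher was Acsf2 (1.37 ± 0.22). Peroxisomal enzymes were called lower in 28 of 34 and higher in 1 under all 3 scalings, among the lower ones Acot12, Amacr and Acox2 with -2.87 ± 0.32, -2.82 ± 0.20 and -2.39 ± 0.30.

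Amino acid breakdown was lower across its branches. Of 24 genes for branched-chain amino acids, 18 were called lower and 0 higher (17 lower under all 3 scalings), led by Ivd (-1.89 ± 0.18) and Aldh6a1 (-1.72 ± 0.26). Of 33 genes for other amino acids, 23 were called lower and 4 higher (23 and 1 under all 3 scalings). Hpd, which converts a tyrosine product to homogentisate, read 0.304, 0.124 and 0.521 RPKM in AA 4wk, against 55.9, 56.4 and 32.6 RPKM in DMSO (-5.20 ± 0.37). Dpys, of pyrimidine breakdown, read 0.0616, 0.0392 and 0.0568 RPKM in AA 4wk against 13.8, 11.3 and 11.1 RPKM in DMSO (-3.63 ± 0.12). Both genes stayed under 1 RPKM in all 3 AA 4wk libraries and above 10 RPKM in all 3 DMSO libraries. Arg2, the mitochondrial arginase, was the 1 member called higher under every scaling (1.97 ± 0.34), while Oat and Got1 were higher as deposited (0.47 ± 0.10 and 0.29 ± 0.09) and not after median-of-ratios scaling, nor Got1 without AA 4wk library 2 (0.25). In the kynurenine and NAD pathway 11 of 17 were called lower and 2 higher under all 3 scalings, the lower ones including Haao (-2.69 ± 0.37), Ido2 (-2.56 ± 0.16) and Kmo (-2.21 ± 0.25). Nnmt, which methylates nicotinamide, and Cd38, which breaks down NAD, rose (2.39 ± 0.48 and 1.77 ± 0.25). Nampt, the rate-limiting enzyme of NAD salvage, read 57.2, 56.9 and 51.3 RPKM in AA 4wk and 50.9, 61.8 and 55.6 RPKM in DMSO, with overlapping groups and a change of -0.02 ± 0.15 that was called lower only after median-of-ratios scaling.

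Mitochondrial genes fell by less. Tricarboxylic acid cycle genes were called lower in 19 of 25 (16 under all 3 scalings), with a median of -0.65, and Mdh1, Sucla2 and Sdha had -0.78 ± 0.17, -0.77 ± 0.13 and -0.68 ± 0.16. Pcx, which feeds the cycle with oxaloacetate, had -1.28 ± 0.32. Nuclear genes of oxidative phosphorylation were called lower in 33 of 56, but in 13 under all 3 scalings, with medians of -0.36 as deposited, -0.77 after median-of-ratios scaling and -0.11 after quantile normalization. Ndufs1, the largest complex I subunit, had the largest change of that list at 62.6, 73.1 and 70.9 RPKM in AA 4wk against 131, 123 and 132 RPKM in DMSO (-0.89 ± 0.15). Within AA 4wk, library 3 was the highest for 52 of the 56 and library 1 the lowest for 51, so the 3 injured cortices were ordered alike across nearly the whole list. Over all tested genes library 3 was the highest for 28.4% and library 1 the lowest for 29%.

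Glucose metabolism divided between synthesis and use. Gluconeogenesis and fructose genes were called lower in 10 of 14 and higher in 1 under all 3 scalings. G6pc, the glucose-releasing phosphatase, read 54.7, 50.1 and 73.8 RPKM in AA 4wk, against 392, 243 and 322 RPKM in DMSO (-2.40 ± 0.43). Pck1, the cytosolic PEP carboxykinase, read 293, 107 and 343 RPKM in AA 4wk, against 796, 788 and 948 RPKM in DMSO (-1.93 ± 0.57), with library 2 the lowest and a change of -1.40 (adjusted p = 0.0515) without it. Its mitochondrial counterpart Pck2 rose (0.83 ± 0.09). Glycolysis genes were called higher in 16 of 24 and lower in 2 (12 and 0 under all 3 scalings). Pkm, the pyruvate kinase of proliferating cells, read 131, 149 and 141 RPKM in AA 4wk, against 51.0, 52.2 and 39.6 RPKM in DMSO (1.55 ± 0.12). The glucose carrier Slc2a1 and the regulator Pfkfb3 had 1.66 ± 0.12 and 1.65 ± 0.17, and Hk2 read 3.74, 2.90 and 3.01 RPKM in AA 4wk against 0.0603, 0.115 and 0.0573 RPKM in DMSO. Hk3, a hexokinase of myeloid cells, also rose (2.07 ± 0.40). Tpi1 and Ldha were called lower as deposited (-0.42 ± 0.12 and -0.25 ± 0.09) and not under quantile normalization, nor Ldha without AA 4wk library 1 or DMSO library 1 or 3 (-0.21 to -0.20). Gapdh, which has many near-identical copies in the genome, read 1.35, 0.945 and 0.621 RPKM in AA 4wk and 1.04, 1.69 and 0.929 RPKM in DMSO, and its level is uncertain; it was named after its values were seen.

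Xenobiotic metabolism, the list nearest to how the tubule handles toxins, was called lower in 36 of 53 and higher in 4 (35 and 2 under all 3 scalings), with a median of -1.82. Inmt, an amine methyltransferase, read 60.4, 45.5 and 73.0 RPKM in AA 4wk, against 1634, 1384 and 1415 RPKM in DMSO (-4.63 ± 0.48). The cytochrome genes Cyp2a4 and Cyp2d9 had -4.49 ± 0.57 and -4.05 ± 0.34, with the reservation that close relatives in these families can share reads. Nqo1, the quinone reductase that is known to activate aristolochic acid, read 26.7, 27.7 and 28.0 RPKM in AA 4wk, against 46.6, 55.8 and 50.5 RPKM in DMSO (-0.86 ± 0.25, adjusted p = 0.00649). Aldh1a1, a retinaldehyde dehydrogenase, ran against the list at 49.4, 56.8 and 63.6 RPKM in AA 4wk and 3.74, 4.04 and 2.21 RPKM in DMSO (3.75 ± 0.23), as did the epoxide hydrolase Ephx1 (2.85 ± 0.22). Of 27 NRF2 targets and glutathione genes, 12 were called higher and 9 lower (7 and 7 under all 3 scalings). Over all tested genes 51.9% were called higher and 14.3% lower, or 22.0% and 13.7% under all 3 scalings. Metallothioneins Mt1 and Mt2 rose (1.63 ± 0.22 and 2.21 ± 0.24), while Me1, Gss and Gclm fell (-1.95 ± 0.15, -1.28 ± 0.12 and -1.11 ± 0.11). Cholesterol genes also divided, with 12 of 26 called higher and 9 lower (6 and 9 under all 3 scalings): Hmgcs1 and Cyp51 of synthesis fell (-1.52 ± 0.10 and -1.92 ± 0.16), while the carriers Apoe, Abca1 and Abcg1, which macrophages also express, rose (3.41 ± 0.28, 1.91 ± 0.24 and 1.85 ± 0.25). The median of that list was 0.16 as deposited and below 0 under both other scalings.

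Among kidney hormones and receptors, 11 of 24 were called lower and 5 higher (11 and 1 under all 3 scalings). Kl (Klotho), the co-receptor for FGF23, read 95.3, 114 and 100 RPKM in AA 4wk, against 266, 214 and 261 RPKM in DMSO (-1.25 ± 0.17). Egf read 48.0, 140 and 81.4 RPKM in AA 4wk, against 337, 382 and 260 RPKM in DMSO (-1.96 ± 0.67, adjusted p = 0.0183), with no overlap between groups but a wide spread within AA 4wk. Without AA 4wk library 1 its change was -1.58 and the call was lost (adjusted p = 0.0798). The growth hormone receptor Ghr fell by 2.03 ± 0.17 on the log2 scale, and Igf1 rose (1.68 ± 0.37). Ren1 is listed at 0 in all libraries and was not tested.

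Injury genes were higher almost throughout. Of 49 tubule injury genes tested, 45 were called higher and 0 lower under all 3 scalings, with a median of 2.60 as deposited and 2.30 after median-of-ratios scaling. Havcr1 (KIM-1), the phosphatidylserine receptor of injured proximal tubule, read 331, 266 and 391 RPKM in AA 4wk libraries, against 0.713, 0.821 and 0.391 RPKM in DMSO libraries (7.64 ± 0.86, adjusted p = 4.58e-06), the largest fold change among the genes whose groups did not overlap. Lcn2 (NGAL), a siderophore-binding protein, read 420, 202 and 285 RPKM in AA 4wk against 1.36, 2.42 and 0.740 RPKM in DMSO (6.91 ± 0.57). Spp1 (osteopontin) reached 8894, 6927 and 6951 RPKM in AA 4wk, against 508, 503 and 438 RPKM in DMSO (3.96 ± 0.28), and had the largest rise in mean RPKM. Krt20, a keratin of simple epithelium, read 47.5, 27.0 and 50.4 RPKM in AA 4wk, against 0.0861, 0.0298 and 0.164 RPKM in DMSO (5.24 ± 0.54). S100a6 and Cd44 had 5.88 ± 0.52 and 4.65 ± 0.51, and Clu (clusterin) 2.77 ± 0.37. The 4 not called were Krt80, Sprr2f, Itgb6 and Itgb8, with 0.25 ± 0.16, 1.55 ± 0.69, 0.08 ± 0.17 and -0.41 ± 0.37. Itgb8 was called lower without DMSO library 2 (-1.05). Sprr2f read 1.56, 2.88 and 1.97 RPKM in AA 4wk and 0.182, 0 and 0 RPKM in DMSO. It was called higher with only these groups in the fit (adjusted p = 0.000153), with a pseudocount of 0.1 and with library quality weights. It was also called higher without any 1 of 3 libraries of the other groups. Krt80 was called higher with quality weights (0.29).

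Sprr1a, a cornified envelope precursor that also marks stressed epithelium, read 256, 108 and 216 RPKM in AA 4wk, against 1.40, 2.69 and 0.560 RPKM in DMSO (6.25 ± 0.68, adjusted p = 3.60e-06). Its RefSeq promoter (GRCm38.p6, chr3:92485832-92486131, minus strand) is shown because it holds the AP-1 letters TGANTCA at 2 places, in capitals, the first 146 bases before the start.
Sprr1a: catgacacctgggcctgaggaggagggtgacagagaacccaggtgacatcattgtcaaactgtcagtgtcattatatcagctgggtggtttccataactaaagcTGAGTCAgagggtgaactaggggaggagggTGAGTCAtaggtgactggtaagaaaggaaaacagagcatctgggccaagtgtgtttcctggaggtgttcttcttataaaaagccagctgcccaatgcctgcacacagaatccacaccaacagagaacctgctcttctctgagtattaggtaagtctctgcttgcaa
AP-1 is the dimer of Fos and Jun proteins. The letters TGANTCA were in 7.81% of the RefSeq promoters searched, in 5.39% of those of tested genes, and in 11 of 43 promoters of the injury list (25.6%). They were also in 5 of 28 promoters of the TNF and NF-kB list (17.9%). In the mostly lowered xenobiotic list they were in 5 of 42 (11.9%), and among proximal tubule transporters in 2 of 54 (3.7%). Among genes called under all 3 scalings they were in 7.78% of promoters of the higher and 5.88% of the lower genes. No test was run on these shares. Immediate early genes, which include the AP-1 subunits, were called higher in 19 of 21 and lower in 0 (17 higher under all 3 scalings). Junb read 119, 65.6 and 99.5 RPKM in AA 4wk, against 13.3, 10.1 and 10.4 RPKM in DMSO (2.93 ± 0.32), and Myc 27.7, 20.7 and 23.7 RPKM in AA 4wk against 3.12, 4.00 and 2.13 RPKM in DMSO (2.63 ± 0.34). Fos read 40.9, 8.61 and 32.3 RPKM in AA 4wk and 3.28, 2.61 and 1.48 RPKM in DMSO (2.82 ± 0.59). Library 2 was the lowest AA 4wk library for 20 of the 21, and for 31.9% of all tested genes. For Dusp1 and Zfp36, the members that were not called, library 2 lay within the DMSO range at 38.3 and 53.3 RPKM. Without that library both were called higher (1.13 and 1.34).

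Genes that mark tubule cells in failed repair were called higher in 16 of 17 under all 3 scalings, with a median of 2.11. Vcam1, an adhesion molecule that failed-repair tubule cells and endothelium both make, read 74.3, 54.0 and 69.2 RPKM in AA 4wk libraries, against 2.69, 5.10 and 2.01 RPKM in DMSO libraries (4.02 ± 0.52). Ccl2, the monocyte chemokine, read 32.8, 34.5 and 47.5 RPKM in AA 4wk against 0.963, 0.784 and 0.0784 RPKM in DMSO (4.64 ± 0.71). Csf1, the macrophage growth factor, read 66.3, 71.6 and 87.3 RPKM in AA 4wk against 2.52, 3.65 and 1.66 RPKM in DMSO (4.43 ± 0.40). Akap12 and Relb had 3.82 ± 0.44 and 2.80 ± 0.32, and Itgb6 was the member not called.

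Targets of p53, the factor that responds to damaged DNA, were called higher in 33 of 38 and lower in 0 (27 higher under all 3 scalings). Cdkn1a (p21), the inhibitor of cyclin-dependent kinases, read 230, 210 and 274 RPKM in AA 4wk libraries, against 2.38, 2.72 and 4.05 RPKM in DMSO libraries. Its log2 fold change was 5.89 ± 0.18 (adjusted p = 2.07e-11), with a narrow spread in both groups. The stress cytokine Gdf15 read 138, 105 and 152 RPKM in AA 4wk and 6.19, 5.19 and 6.23 RPKM in DMSO (4.26 ± 0.16). Phlda3, Psrc1, Plk2 and Eda2r had 4.24 ± 0.26, 3.76 ± 0.23, 3.47 ± 0.39 and 3.05 ± 0.26. DNA repair genes were higher by less and depended on the scaling, with 33 of 42 called as deposited and 13 under all 3 scalings, and medians of 0.64, 0.38 and 0.11. Among them Lig1 and Mgmt had 1.75 ± 0.27 and 1.71 ± 0.18.

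Cell cycle genes were called higher in 47 of 49 (33 under all 3 scalings) at low levels. Top2a, a topoisomerase of dividing cells, read 7.95, 7.80 and 7.67 RPKM in AA 4wk, against 0.393, 0.671 and 0.617 RPKM in DMSO (2.50 ± 0.42). Ube2c, which tags mitotic cyclins, read 14.8, 9.60 and 13.7 RPKM in AA 4wk against 0.655, 1.36 and 0.950 RPKM in DMSO (2.78 ± 0.48). Ccnd2 (cyclin D2) had the largest fold change of the list, at 28.6, 39.6 and 35.1 RPKM in AA 4wk against 2.55, 3.36 and 2.06 RPKM in DMSO (3.28 ± 0.35). Mcm6 and Tyms were not called (0.62 ± 0.28 and 0.35 ± 0.15). Mcm6 was called higher with only these groups in the fit (adjusted p = 0.000885), with a replicate block, with quality weights and without either AA 2wk library 3 (0.62). Tyms was called higher with only these groups in the fit (adjusted p = 0.0377), with a pseudocount of 0.1, with a replicate block, with quality weights and with voom. It was also called higher without AA 4wk library 1 (0.43), but lower under quantile normalization (-0.33). Of 21 senescence genes and cell cycle inhibitors, 15 were called higher and 1 lower (12 and 1 under all 3 scalings). The inhibitor Cdkn2b (p15) rose and read 11.2, 10.5 and 11.2 RPKM in AA 4wk against 0.239, 0.701 and 0.363 RPKM in DMSO (3.07 ± 0.34). Glb1, the gene of senescence-associated beta-galactosidase, was the 1 called lower (-0.63 ± 0.15). Il6, an inflammatory cytokine, read 0.763, 0.312 and 0.301 RPKM in AA 4wk and is listed at 0 in all 3 DMSO libraries. It was not called with all groups in the fit at a pseudocount of 1 (0.53 ± 0.32), and was called higher with only these groups in the fit (adjusted p = 0.0107), with a pseudocount of 0.1, with quality weights and with voom on recovered reads. Among regulated cell death genes 27 of 31 were called higher and 3 lower (20 and 3 under all 3 scalings), with the necroptosis and pyroptosis genes Ripk3, Zbp1, Casp4 and Gsdmd at 2.79 ± 0.29, 2.95 ± 0.53, 2.79 ± 0.38 and 2.71 ± 0.38. Bid, which links caspases to mitochondria, fell (-0.82 ± 0.13), and Casp9 read 12.2, 12.8 and 12 RPKM in AA 4wk and 11.9, 13.5 and 13.0 RPKM in DMSO, a change called lower under both other scalings only. Unfolded protein and stress genes were called higher in 14 of 26 and lower in 4 (7 and 2 under all 3 scalings). The higher counts were near the shares over all tested genes, 51.9% as deposited and 22.0% under all 3 scalings. Atf3 and Ddit3 were higher (2.80 ± 0.35 and 1.47 ± 0.20) and the chaperones Hsph1 and Hspa8 lower (-0.94 ± 0.18 and -0.53 ± 0.15), Hspa8 not under quantile normalization.

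**Figure D3:**
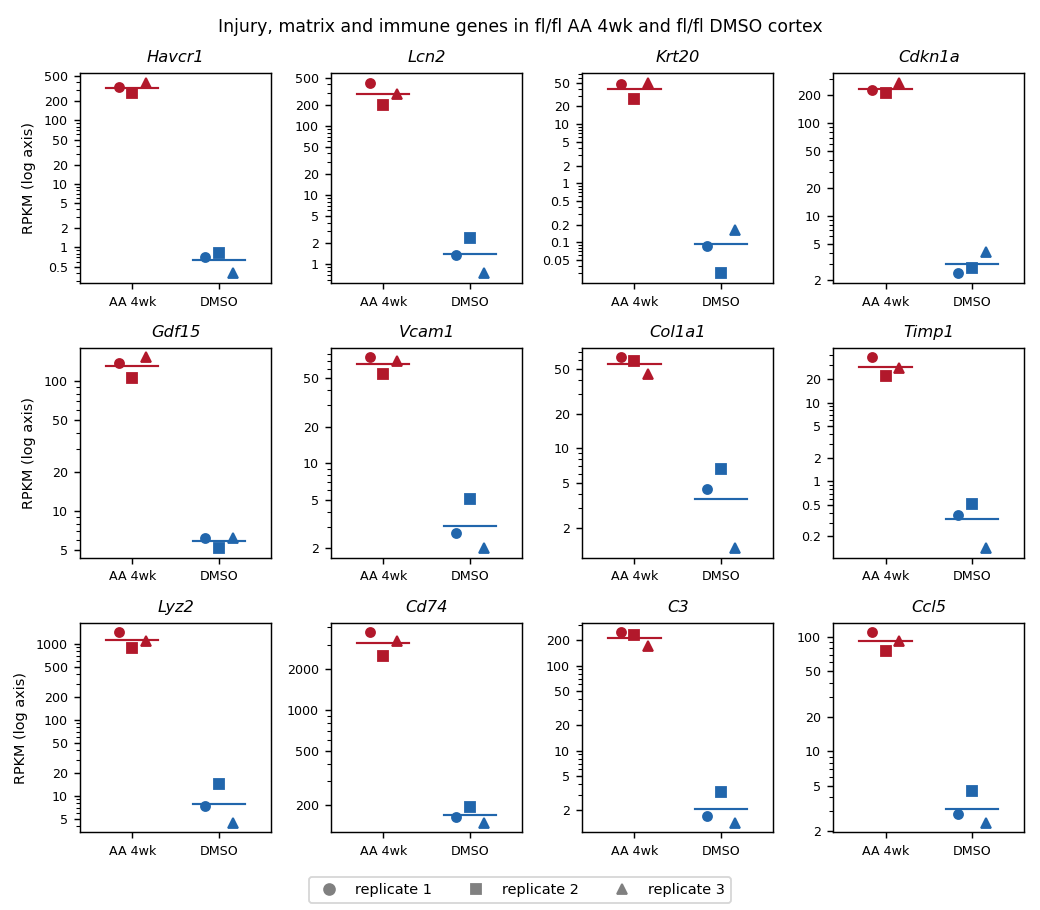
RPKM on log axes of 12 injury, matrix and immune genes in the 3 fl/fl AA 4wk and the 3 fl/fl DMSO libraries. Symbols mark replicate numbers and bars the group mean of log2(RPKM + 1) set back to RPKM, and in each panel all AA 4wk libraries lie above all DMSO libraries, with DMSO library 3 the lowest for Col1a1.

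Matrix genes were higher, with DMSO libraries further apart than for tubule genes. Of 17 fibrillar and interstitial collagens, 12 were called higher and 0 lower (9 higher under all 3 scalings). Col1a1 read 62.5, 57.9 and 44.4 RPKM in AA 4wk, against 4.42, 6.56 and 1.33 RPKM in DMSO (3.60 ± 0.86, adjusted p = 0.00199), and Col3a1 read 98.9, 86.8 and 70.6 RPKM in AA 4wk against 5.92, 9.15 and 2.35 RPKM in DMSO (3.79 ± 0.89). Both are the fibrillar collagens of scar, and both were highest in DMSO library 2 and lowest in DMSO library 3, yet every AA 4wk library lay above all 3. Basement membrane genes were called higher in 16 of 23 and lower in 2 (12 and 2 under all 3 scalings), with Col4a1 at 1.76 ± 0.30. The laminin chain Lama1 and Fras1 were lower (-0.62 ± 0.13 and -0.70 ± 0.17). Fn1 (fibronectin) rose to 41.0, 52.5 and 31.4 RPKM in AA 4wk, against 3.93, 5.90 and 1.36 RPKM in DMSO (3.28 ± 0.53). Thbs1, which activates latent TGF-beta, read 107, 114 and 114 RPKM in AA 4wk and 8.32, 13.5 and 6.88 RPKM in DMSO (3.46 ± 0.36). In all, 27 of 31 matricellular and other matrix proteins were called higher and 0 lower (22 higher under all 3 scalings), and Lum, Fbln5, Ltbp1 and Ecm1 were not called. Lum was called higher without DMSO library 2 (1.42).

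Proteases and their inhibitors were called higher in 25 of 30 and lower in 2 (24 and 2 under all 3 scalings). Mmp2, a gelatinase of fibroblasts, read 45.6, 52.4 and 41.1 RPKM in AA 4wk, against 1.66, 2.19 and 0.374 RPKM in DMSO (4.38 ± 0.60), and the membrane protease Mmp14 had 3.66 ± 0.40. Timp1, the inducible metalloproteinase inhibitor, read 37.5, 22.1 and 27.2 RPKM in AA 4wk against 0.374, 0.516 and 0.142 RPKM in DMSO (4.46 ± 0.81), and it missed the threshold with voom on recovered reads (adjusted p = 0.0548). Timp3, the matrix-bound inhibitor, ran the other way at 288, 314 and 304 RPKM in AA 4wk and 701, 553 and 712 RPKM in DMSO (-1.11 ± 0.14). In the TGF-beta family, 22 of 30 were called higher and 0 lower (15 higher under all 3 scalings). The ligand Tgfb1 read 56.9, 50.7 and 48.3 RPKM in AA 4wk, against 8.89, 9.65 and 6.42 RPKM in DMSO (2.52 ± 0.27), and its receptor Tgfbr2 had 1.88 ± 0.21. The activin subunit Inhbb had 2.55 ± 0.24. Fst (follistatin), the secreted activin antagonist, read 55.6, 66.8 and 69.5 RPKM in AA 4wk against 0.285, 1.5 and 0.108 RPKM in DMSO (5.40 ± 0.35, adjusted p = 7.06e-08). Fibroblast, pericyte and myofibroblast markers were called higher in 14 of 21 and lower in 1 (11 and 1 under all 3 scalings), including Thy1 (3.84 ± 0.60), which T cells also make, and Postn (2.20 ± 0.55). Their summed level was 1061 to 1097 RPKM in AA 4wk libraries and 574 to 767 RPKM in DMSO libraries.

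Macrophage and monocyte genes had the highest median of any list, 3.82 as deposited and 3.47 after median-of-ratios scaling. Of 34, 32 were called higher and 0 lower (31 higher under all 3 scalings), and their summed level was 11937 to 15934 RPKM in AA 4wk libraries against 697 to 904 RPKM in DMSO libraries. Lyz2, the lysozyme of myeloid cells, read 1424, 874 and 1102 RPKM in AA 4wk, against 7.45, 14.4 and 4.42 RPKM in DMSO (6.96 ± 0.72, adjusted p = 2.35e-06). Lyz1, a near-identical neighbour whose reads can be shared with it, had 5.28 ± 0.66. The complement subunits C1qa, C1qb and C1qc, made by resident macrophages, had 4.41 ± 0.45, 4.42 ± 0.41 and 4.60 ± 0.44. Retnla, a marker of alternatively activated macrophages, read 125, 27.9 and 74.9 RPKM in AA 4wk and 0, 0.096 and 0 RPKM in DMSO (5.98 ± 0.85), so it was present in all injured cortices with a wide spread. Arg1 and Chil3, markers of the same state, stayed under 1 RPKM in all 6 libraries and were not called (0.59 ± 0.39 and 0.16 ± 0.26). Arg1 was called higher with only these groups in the fit (adjusted p = 0.0152), with a pseudocount of 0.1 and with voom on recovered reads. Fcrls, a scavenger receptor gene of tissue macrophages, read 34.8, 27.9 and 31.2 RPKM in AA 4wk against 0.0557, 0.202 and 0 RPKM in DMSO (4.89 ± 0.36).

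Lymphoid and dendritic cell genes were higher at lower levels. T and NK cell genes were called higher in 24 of 25 (22 under all 3 scalings), with Cd3g at 19.3, 15.7 and 18.2 RPKM in AA 4wk against 0.650, 0.954 and 0.432 RPKM in DMSO (3.49 ± 0.60), and both Cd4 and Cd8b1 rose (3.55 ± 0.54 and 3.14 ± 0.48). Dendritic cell genes were called higher in 12 of 12 (9 under all 3 scalings), led by the chemokines Ccl17 and Ccl22 (3.93 ± 0.66 and 3.67 ± 0.67). B and plasma cell genes were called higher in 9 of 10 (6 under all 3 scalings), and Igj, the joining chain of secreted IgA and IgM, read 76.1, 68.1 and 136 RPKM in AA 4wk against 16.5, 13.1 and 18.5 RPKM in DMSO (2.41 ± 0.43). Of 6 neutrophil and mast cell markers 4 were called higher, 2 of them under all 3 scalings. The abundant neutrophil proteins were not among them: S100a8 read 1.06, 0.865 and 0.418 RPKM in AA 4wk and 0.424, 0.879 and 0.806 RPKM in DMSO, S100a9 overlapped in the same way, and neither was called.

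Antigen presentation genes were called higher in 26 of 26 (25 under all 3 scalings). Cd74, the class II invariant chain, read 3690, 2471 and 3166 RPKM in AA 4wk libraries, against 165, 196 and 149 RPKM in DMSO libraries (4.17 ± 0.54). The class II genes H2-Aa, H2-Ab1 and H2-Eb1 had 4.07 ± 0.56, 4.01 ± 0.54 and 4.09 ± 0.56, with the reservation that H2 genes resemble each other. B2m, the light chain of class I molecules, read 2854, 2944 and 2841 RPKM in AA 4wk against 451, 609 and 400 RPKM in DMSO (2.59 ± 0.34, adjusted p = 1.54e-05). Complement genes were called higher in 19 of 23 and lower in 2 (16 and 1 under all 3 scalings). C3, the central component, rose to 247, 228 and 170 RPKM in AA 4wk, against 1.68, 3.29 and 1.41 RPKM in DMSO (6.14 ± 0.53). C8a, of the membrane attack complex, fell to 0.521, 0.171 and 0.556 RPKM in AA 4wk, against 5.92, 10.3 and 7.92 RPKM in DMSO (-2.66 ± 0.29), and Cfb was lower as deposited (-0.58 ± 0.18) but not under quantile normalization.

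Chemokines and their receptors were called higher in 29 of 37 and lower in 2 (26 and 2 under all 3 scalings). Ccl8, a ligand for monocytes and T cells, read 153, 130 and 161 RPKM in AA 4wk, against 0.108, 0.337 and 0.247 RPKM in DMSO (6.92 ± 1.06). Ccl5, which attracts T cells, read 110, 76.1 and 92.7 RPKM in AA 4wk against 2.82, 4.54 and 2.38 RPKM in DMSO (4.49 ± 0.65). Cxcl1, a neutrophil chemokine, read 43.9, 13.6 and 32.9 RPKM in AA 4wk and 0.409, 1.39 and 0.399 RPKM in DMSO (4.07 ± 0.45). Ccl25 and the decoy receptor Ackr3 were the 2 called lower (-0.68 ± 0.18 and -0.31 ± 0.12), Ackr3 not without AA 4wk library 1 or any DMSO library (-0.32 to -0.19). TNF and NF-kB pathway genes were called higher in 27 of 30 and lower in 1 (25 and 1 under all 3 scalings), with Ltb, Tnfrsf1b and Icam1 at 3.83 ± 0.67, 2.96 ± 0.41 and 2.79 ± 0.23. Tnfaip8 was the 1 that fell, to 42.2, 39.8 and 50.6 RPKM in AA 4wk, against 135, 124 and 117 RPKM in DMSO (-1.49 ± 0.17). Interferon-stimulated genes were called higher in 37 of 40 (33 under all 3 scalings), with Gbp2, Ifit3 and Iigp1 at 3.37 ± 0.53, 3.34 ± 0.30 and 3.24 ± 0.59. Rsad2, Ifi44 and Cmpk2, all known type I interferon targets, were not called, and Rsad2 read 12.5, 18.1 and 12.8 RPKM in AA 4wk and 11.2, 12.9 and 8.21 RPKM in DMSO.

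The promoters of Cxcl1 and B2m are shown because both genes rose and both hold the motif of NF-kB, searched on both strands with any base at its middle 2 positions and printed in capitals. They come from RefSeq, GRCm38.p6, at chr5:90890995-90891294 (plus strand, 2 matches, the first 89 bases before the start) and chr2:122147437-122147736 (plus strand, 1 match, 126 bases before the start).
Cxcl1: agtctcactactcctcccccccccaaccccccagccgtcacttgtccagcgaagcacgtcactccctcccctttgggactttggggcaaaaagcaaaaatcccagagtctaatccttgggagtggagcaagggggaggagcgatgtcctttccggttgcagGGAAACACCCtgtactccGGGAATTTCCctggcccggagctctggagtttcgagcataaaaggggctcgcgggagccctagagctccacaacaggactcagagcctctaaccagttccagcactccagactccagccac
B2m: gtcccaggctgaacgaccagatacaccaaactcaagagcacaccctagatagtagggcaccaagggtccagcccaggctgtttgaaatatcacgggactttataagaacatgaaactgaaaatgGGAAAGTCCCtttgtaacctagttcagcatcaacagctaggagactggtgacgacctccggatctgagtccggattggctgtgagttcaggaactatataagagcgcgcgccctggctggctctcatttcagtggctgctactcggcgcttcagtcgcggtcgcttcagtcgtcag
This motif occurred in 1.63% of the RefSeq promoters searched, in 1.74% of promoters of tested genes, in 2.66% of promoters of genes called higher under all 3 scalings, and in 13 of 197 promoters of genes with a rise of at least 3 (6.60%). In the TNF and NF-kB list, whose genes are in part known targets, 9 of 28 promoters held them (32.1%). A match is a description of letters and was not tested as a binding site.

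Markers of the other nephron segments and of vessels had medians of 0.15 to 0.65 as deposited and -0.26 to 0.24 after median-of-ratios scaling. Over all tested genes 51.9% were called higher and 14.3% lower, or 22.0% and 13.7% under all 3 scalings. Counts below that lie near these shares do not set a list apart from other genes. Endothelial markers were called higher in 10 of 24 and lower in 2, but 2 and 2 under all 3 scalings, and their summed level was 881 to 1212 RPKM in AA 4wk and 885 to 1155 RPKM in DMSO. Kdr, the main VEGF receptor, was lower (12, 17.6 and 9.04 RPKM in AA 4wk against 22.4, 21.5 and 16.7 RPKM in DMSO, -0.65 ± 0.25), with groups that overlap and no call without AA 4wk library 1 or 3 or DMSO library 1 or 2 (-0.62 to -0.44). Among podocyte markers Nphs1 (nephrin) read 7.37, 7.91 and 7.23 RPKM in AA 4wk and 5.96, 7.02 and 4.40 RPKM in DMSO (0.34 ± 0.33, not called), and 8 of 15 were called higher and 1 lower (5 and 1 under all 3 scalings). In the thick ascending limb 7 of 12 were called higher and 2 lower (3 and 2 under all 3 scalings). Its marker Umod (uromodulin) read 3030, 3653 and 3557 RPKM in AA 4wk against 1443, 2188 and 1088 RPKM in DMSO (1.17 ± 0.43, adjusted p = 0.0263), and it was not called after median-of-ratios scaling, or without AA 4wk library 2 or 3 or DMSO library 1 or 3 (0.94 to 1.14). The claudins of that segment divided, with Cldn19 and Cldn16 higher (1.88 ± 0.27 and 1.12 ± 0.14) and Cldn10 lower (-0.84 ± 0.24). Pvalb (parvalbumin), a marker of the early distal convoluted tubule, fell to 2.43, 7.89 and 3.93 RPKM in AA 4wk, against 25.5, 22.1 and 29.0 RPKM in DMSO (-2.31 ± 0.48), while Trpv5, the calcium channel further along, rose (1.04 ± 0.16). Collecting duct principal cell markers were called higher in 11 of 16 and lower in 1 (4 and 1 under all 3 scalings), and the water channel Aqp2 read 105, 207 and 187 RPKM in AA 4wk and 75, 81.2 and 47.5 RPKM in DMSO (1.26 ± 0.33). Distal convoluted and connecting tubule markers were called higher in 4 of 16 and lower in 2 (2 and 2 under all 3 scalings), and intercalated cell markers in 7 and 1 of 18 (2 and 0 under all 3 scalings). These lists had medians of 0.25 and 0.15 as deposited and -0.13 and -0.26 after median-of-ratios scaling, so their direction depends on the scaling.

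**Figure D4:**
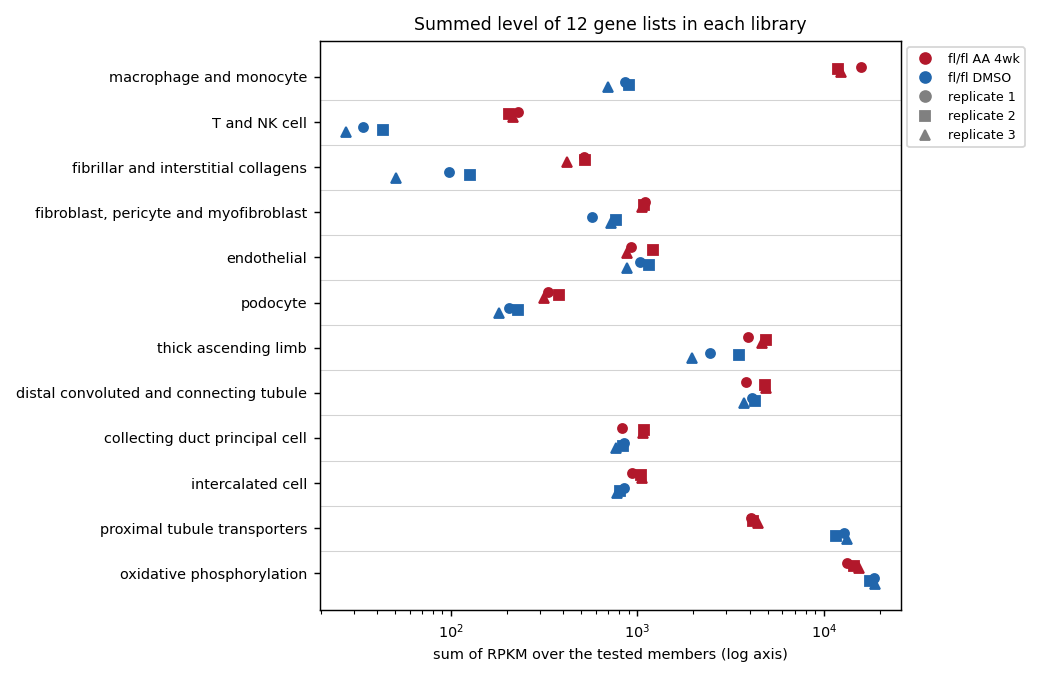
Sum of RPKM over the tested members of 12 lists in each of the 6 libraries, on a log axis, with fl/fl AA 4wk above fl/fl DMSO in each row and symbols for replicate numbers. Macrophage, T cell, collagen and podocyte sums are higher in every AA 4wk library, proximal tubule transporter sums are lower in every AA 4wk library, and endothelial sums overlap.

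The markers of other cells move with the tubule results in the same 6 libraries. Macrophage sums were higher and proximal tubule transporter sums were 4098 to 4422 RPKM in AA 4wk against 11687 to 13346 RPKM in DMSO, and the part of cell composition in any gene's change was not tested. Of 21 markers of fat, adrenal and red cells 4 were tested, and none of these passed the limma test as deposited. The sum of those 4 was 55.2 to 74.6 RPKM in AA 4wk and 32.9 to 50.3 RPKM in DMSO, so it was higher in every AA 4wk library. Fabp4, which fat cells, endothelium and macrophages all make, held most of that sum and came nearest to a call (0.62 ± 0.27, unadjusted p = 0.0341, adjusted p = 0.0513). It was called higher with only these groups in the fit (adjusted p = 0.0183), with quality weights, with voom, at a filter of 5 RPKM and without any 1 of 5 libraries. Alas2, of heme synthesis in red cells, stayed under 0.3 RPKM. Star read 1.14, 1.19 and 1.14 RPKM in AA 4wk and 0.996, 1.72 and 0.898 RPKM in DMSO, and was called lower under quantile normalization. Adipoq of fat cells and Cyp11b1 of the adrenal cortex were at most 0.229 and 0.0228 RPKM in the 6 libraries. The 5 globin genes are listed at 0 in all 6, but so is the glycolysis gene Eno1, which every cell uses, so their zeros do not show that red cells were absent. Adipoq, Cyp11b1 and Eno1 were named after their values were seen. Iron genes were called higher in 9 of 18 and lower in 6 (7 and 6 under all 3 scalings). The higher count as deposited was near the 51.9% over all tested genes. Among the iron genes Trf (transferrin) rose to 92.0, 70.2 and 81.5 RPKM in AA 4wk, against 12.2, 13.4 and 6.96 RPKM in DMSO (2.83 ± 0.21), Slc11a1 of phagocytes rose (3.01 ± 0.42), and the transferrin receptor Tfrc fell (-0.78 ± 0.20).

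Some genes outside the lists changed as much as the listed ones. Azgp1, a secreted zinc-binding glycoprotein, read 1.76, 1.25 and 2.87 RPKM in AA 4wk, against 125, 107 and 147 RPKM in DMSO (-5.45 ± 0.30). Pzp, a protease-trapping plasma protein, had -4.72 ± 0.23. Ankrd1, a nuclear ankyrin-repeat protein and a target of the YAP coactivator, read 62.5, 63.2 and 70.6 RPKM in AA 4wk against 0.314, 1.95 and 0.322 RPKM in DMSO (5.27 ± 0.52), and Serpina10, an inhibitor of clotting factors, had 5.06 ± 0.44. Among the abundant genes, Miox, which catabolises inositol in the proximal tubule, and the aspartic protease Napsa fell to 464 to 630 RPKM and 144 to 303 RPKM in AA 4wk, against 2145 to 2562 RPKM and 1344 to 2043 RPKM in DMSO.

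The AA 4wk libraries did not agree equally on every gene. Among genes with a mean of at least 5 RPKM in them, the widest spread was in Retnla, Cyp2a4, Fos, Car3, Snord2, Serpina1d, Chchd2, Psca, Ly6d and Rnase4. Chchd2, a mitochondrial protein, read 77.8, 19.4 and 87.4 RPKM in AA 4wk and 109, 105 and 125 RPKM in DMSO, so library 2 stood apart. Rnase4 overlapped between groups at 26.1, 81.0 and 23 RPKM in AA 4wk and 5.66, 37.3 and 73.3 RPKM in DMSO.

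The AA 4wk libraries were also set against Klf15fl/fl cortex at the end of the toxin course, which asks what 2 weeks of remodeling changed. They are the same AA 4wk libraries as above, so the 2 comparisons are not independent. In this comparison 17 genes were called, or 0.125% of those tested, 9 higher and 8 lower, and 1672 had an unadjusted p below 0.05. With these 2 groups alone in the limma fit 0 genes were called, with 1593 at an unadjusted p below 0.05, and voom on recovered reads called 10. The count was 1, 5 and 7 without AA 4wk library 1, 2 and 3, and 5, 161 and 6 without AA 2wk library 1, 2 and 3. It was 90 without PTKO AA 2wk library 3, 28 without PTKO AA 4wk library 1, 10 to 14 without any other library, and 781 with libraries weighted by quality. Each of the 6 called genes named next lost its call without AA 4wk library 1. Clec10a lost it without any 1 of 16 libraries, and Mep1a without any 1 of 14. These 2 genes also lost it with a pseudocount of 0.1 and at a filter of 5 RPKM. Clec10a, a lectin of macrophages and dendritic cells, read 13.1, 15.7 and 14.2 RPKM in AA 4wk, against 3.53, 6.81 and 1.07 RPKM in AA 2wk (1.87 ± 0.34, adjusted p = 0.0487). Trf read 92.0, 70.2 and 81.5 RPKM in AA 4wk against 28.9, 40.4 and 28.6 RPKM in AA 2wk (1.30 ± 0.21, adjusted p = 0.0239). Mucl1, a secreted mucin-like protein, read 23.4, 12.6 and 23.5 RPKM in AA 4wk, against 0.0711, 3.26 and 0 RPKM in AA 2wk, and it is listed at 0 in all 3 DMSO libraries. The meprin gene Mep1a read 121, 115 and 154 RPKM in AA 4wk against 432, 209 and 489 RPKM in AA 2wk (-1.45 ± 0.26, adjusted p = 0.0436), and Tmigd1, an adhesion protein of tubule epithelium, 27.4, 27.0 and 33.8 RPKM in AA 4wk against 100, 59.7 and 114 RPKM in AA 2wk (-1.56 ± 0.23). Ces2e, a carboxylesterase, read 22.9, 22.9 and 30.3 RPKM in AA 4wk and 115, 52.4 and 169 RPKM in AA 2wk, and was still above the 8.71, 9.72 and 6.01 RPKM of DMSO. Havcr1 averaged 329 ± 62.7 RPKM in AA 4wk and 528 ± 82.6 RPKM in AA 2wk (SD, n = 3 each) and was not called between them.

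**Figure D5:**
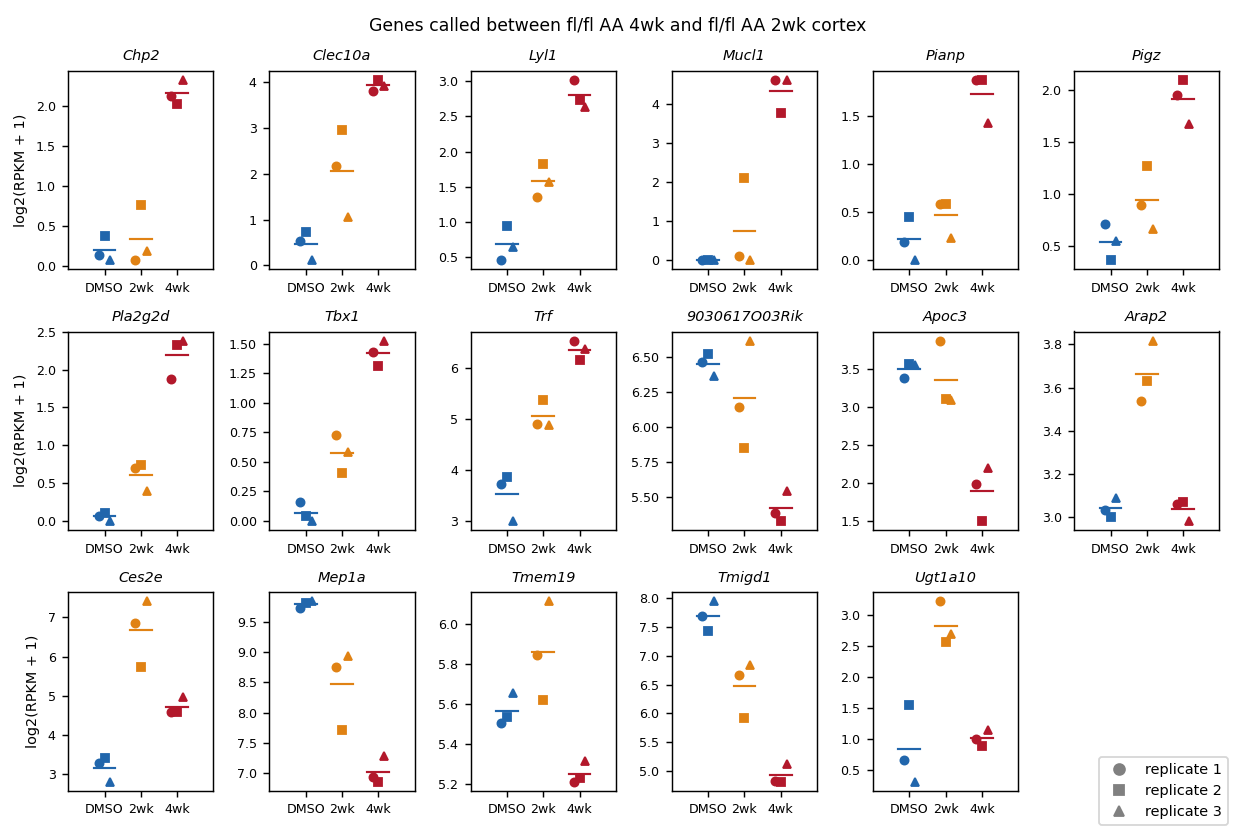
log2(RPKM + 1) of the 17 genes called between fl/fl AA 4wk and fl/fl AA 2wk cortex, in fl/fl DMSO, fl/fl AA 2wk and fl/fl AA 4wk libraries, with symbols for replicate numbers and bars for group means. The first 9 panels are the genes higher in AA 4wk and the last 8 those lower, and AA 2wk libraries are spread more widely than AA 4wk libraries for Clec10a, Mucl1 and Mep1a.

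Over lists, the median AA 4wk level relative to AA 2wk was 0.82 for macrophage genes, 0.52 for antigen presentation, 0.44 for T and NK cells, 0.34 for collagens, -0.32 for proximal tubule transporters and -0.32 for p53 targets. These are medians of fold changes of which at most 1 per list was called, in a comparison where 0.125% of all genes were.

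The AA 4wk change was last compared between Klf15fl/fl and Klf15PTKO cortex. Only 1 gene was called in that interaction, or 0.00734% of those tested, and 635 had an unadjusted p below 0.05. It was Hprt, the purine salvage enzyme, with a difference of 1.95 ± 0.20 (adjusted p = 0.000756). It read 85.4, 76.9 and 88.5 RPKM in fl/fl AA 4wk and 53.5, 48.4 and 61.6 RPKM in fl/fl DMSO, but 7.09, 4.84 and 6.82 RPKM in PTKO AA 4wk and 20.9, 15.9 and 15.1 RPKM in PTKO DMSO. The rise in fl/fl cortex was not called after median-of-ratios scaling (0.20). With libraries weighted by quality 161 genes were called, against 1 under every other alternative. A count of 1 does not show that the other genes changed alike in both genotypes, since the difference rests on 3 libraries in each of 4 groups.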

How the data were processed

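RNA from mouse renal cortex was sequenced in 18 libraries, 3 in each of 6 groups. Per the labels' protocols, total RNA went into strand-specific TruSeq libraries. Among tools, bcl2fastq 2.19 and kallisto are listed in the submitters' processing notes, with mm10 as the build. The annotation, the assignment of reads to genes and the use of strand are steps not given in the sources used here, so overlapping and antisense genes may share reads. The authors deposited 1 RPKM value per gene and replicate, for 24062 genes, 27 of whose names read as dates.

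Low RPKM values were whole multiples of 1 read (tolerance 0.02 reads) for 17579 of 17579 genes above 0 in at least 6 libraries, which gave 11.0 to 21.9 M reads per library. Genes that reached 1 RPKM in 3 or more libraries were fitted on log2(RPKM + 1) with limma 3.58.1 (R 4.3.3, statmod 1.5.0), with 6 group means, a mean-variance trend and robust moderation. P-values were two-sided and adjusted by Benjamini-Hochberg over all tested genes. The fit was tested on simulated data with as many raised as lowered genes, so that test does not bear on the choice of scaling. The comparison and the 51 gene lists were chosen with earlier results of these data known.

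The genes named are those with the largest fold changes or RPKM differences, the leading, contrary and few uncalled members of each list, those most variable among AA 4wk libraries, those called in the other 2 comparisons, and a fixed set of kidney genes. Slc5a2 and Slc5a12 were added as further defining markers of the proximal tubule. Alternatives were the pseudocount, the filter, 2 other scalings, fewer groups in the fit, a replicate block, gene-by-gene library quality weights, voom on recovered reads, and leaving out libraries. Some genes that this rule picks are not reported here.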

Additional observations from a re-analysis of the deposited data

Results flagged for a closer look

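Hprt was picked out because its AA 4wk change differed between genotypes in the interaction term of the limma fit. The difference, fl/fl minus PTKO, was 1.95 ± 0.20 on the log2(RPKM + 1) scale (adjusted p = 0.000756). In Klf15fl/fl cortex Hprt averaged 83.6 ± 5.98 RPKM in AA 4wk and 54.5 ± 6.67 RPKM in DMSO (SD, n = 3 each). In Klf15PTKO cortex it averaged 6.25 ± 1.23 RPKM in AA 4wk and 17.3 ± 3.12 RPKM in DMSO (SD, n = 3 each), a change of -1.34 ± 0.14. The PTKO libraries were thus below the fl/fl libraries under vehicle as well as after injury. The cause was not tested.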

How the results depend on the processing

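Of 241 fold changes named, 196 kept their direction and their call under every alternative run. The count of 9028 genes called between AA 4wk and DMSO ranged from 8007 to 9546 when 1 library was left out, and stayed within 1.5 times under the other alternatives. Between AA 4wk and AA 2wk the 17 calls became 10 with a pseudocount of 0.1, 8 at a filter of 5 RPKM, 37 under quantile normalization, 0 with only these groups in the fit, 781 with quality weights, 10 with voom, 43 without both AA 2wk libraries numbered 3, and 1 to 161 when 1 library was left out. The interaction had 1 call, 1 to 1 when 1 library was left out, and 161 with quality weights. Beyond the fewer libraries or genes of some alternatives, the cause was not tested.

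The labels do not say what a replicate number marks, and 3 libraries a group cannot decide whether the numbers pair the samples. Deviations of AA 4wk and DMSO libraries with the same number correlated across genes at -0.03, 0.18 and 0.34. With a replicate block the counts were 9279, 40 and 1 in the 3 comparisons, and in fits of only the groups compared 9219, 0 and 1.

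After median-of-ratios scaling Ap2m1 and Got1 reversed to -0.03 and -0.12, and the list medians of cholesterol, unfolded protein, distal convoluted tubule and intercalated cell genes to -0.23, -0.15, -0.13 and -0.26. Under quantile normalization Ldha and Tyms reversed to 0.02 and -0.33, and the medians of cholesterol, NRF2, adipocyte, adrenal and erythroid, and iron genes to -0.16, 0.08, -0.33 and -0.02. Values near 0 RPKM rest on few reads, and 3 libraries a group limit the precision.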
